A study of Mus musculus with 4 samples.

Results

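The peaks described here are 23537 Elavl-bound regions of mouse cortex RNA that lie in very long genes. They were taken from the deposited cortex list of 97775 peaks, of which they made up 24.1% (95% Wilson interval 23.8 to 24.3). A peak was a member when it touched, by at least 1 nt, exactly 1 protein-coding gene span of GRCm38 and that span was at least 500 kb long. Of 21900 coding genes, 227 (1.04%) were that long, and together they held 18.4% of the summed coding span. Their spans ran from 501.754 kb (Edil3) to 2390.39 kb (Dmd), with a median of 734 kb. A further 175 peaks touched 2 or more long genes and 277 touched a long gene and a shorter coding gene, and these were left out. No measured value of the peaks entered the choice.

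Elavl HITS-CLIP was done on 3 samples of UV-irradiated mouse cortex, labelled as brain tissue, and on 1 sample of N2A, a mouse neuroblastoma cell line. RNA-binding proteins were crosslinked to RNA by ultraviolet light, RNA was partly digested, and the Elavl-bound fragments were amplified after linkers had been ligated to them. The degenerate 5′ linker had 25 nt in the cortex samples and 7 nt in the N2A sample, so linker length and sample type cannot be told apart. For cortex there is 1 peak list for the 3 samples together, with a 2-month term in its name that the labels leave unexplained, and for N2A there is a separate list. The sources used here do not give strain, age, genotype, antibody or read depth. Because a list holds no value per sample, the spread between cortex samples is unknown, no test between samples was possible, and each interval below covers counting error only. Peaks of 1 gene and genes of 1 list share the same libraries and are not replicates.

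Elavl proteins, also called Hu proteins, recognise RNA rich in U or in A and U. The neuronal members of the family act on introns, where they influence alternative splicing, and on 3′ untranslated regions, where they influence the stability and translation of mRNA. Very long mammalian genes consist almost wholly of intron, and many of them encode cell adhesion molecules, ion channels, receptors and scaffolds of synapses. Exons were not part of the annotation used here, so the place of a peak is given as its distance from the start and the end of the gene span, not as intron, exon or untranslated region.

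Sequences could be read for 4 members, those that lay wholly inside a RefSeq window around an annotated gene start (GRCm38.p6). They are shown because they are the members with sequence at hand, and they were not chosen for strength. The p-value in the authors' list was 0.0033 for Ank2, 0.0707 for Celf2, 0.0954 for Pde4b and 0.0659 for Robo2. The median of the cortex list was 0.00972 and its highest p 0.0999, so the last 3 are among the weaker peaks. The windows of the Ank2 and Robo2 peaks lay around starts of other genes, Gm16958 and Gm52242, on the plus strand. Each is written 5′ to 3′ on the strand of the peak, as DNA, with the peak in capitals and up to 60 neighbouring bases of the window in lower case. The Ank2 peak (chr3:127161070-127161120, minus strand) lay at 0.59 of the gene's length from its start, and Ank2 encodes an ankyrin that anchors membrane proteins to the cytoskeleton. The Celf2 peak (chr2:7396003-7396053, minus strand) ended 3 nt upstream of an annotated start at position 7396000, and Celf2 encodes a splicing regulator. The Pde4b peak (chr4:102569860-102569911, plus strand) lay upstream of an internal start at 102570060, and Pde4b encodes a phosphodiesterase that degrades cyclic AMP. The Robo2 peak (chr16:74619942-74619992, minus strand) lay at 0.53 of the length of Robo2, which encodes an axon guidance receptor.
Ank2: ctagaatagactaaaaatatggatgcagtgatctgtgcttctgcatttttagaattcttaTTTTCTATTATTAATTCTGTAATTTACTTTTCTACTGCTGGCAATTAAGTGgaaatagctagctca
Celf2: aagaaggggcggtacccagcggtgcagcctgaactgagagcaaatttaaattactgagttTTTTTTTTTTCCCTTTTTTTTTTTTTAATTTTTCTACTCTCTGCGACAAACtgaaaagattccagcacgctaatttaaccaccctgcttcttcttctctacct
Pde4b: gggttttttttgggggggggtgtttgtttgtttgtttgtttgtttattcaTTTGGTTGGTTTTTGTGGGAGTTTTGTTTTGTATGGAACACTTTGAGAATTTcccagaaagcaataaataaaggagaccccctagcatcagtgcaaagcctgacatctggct
Robo2: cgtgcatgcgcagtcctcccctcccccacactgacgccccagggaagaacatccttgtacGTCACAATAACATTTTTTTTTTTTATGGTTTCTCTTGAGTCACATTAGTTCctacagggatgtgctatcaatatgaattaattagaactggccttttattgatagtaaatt

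The share of T, read as U in RNA, was 51% in the Ank2 peak, 62.7% in the Celf2 peak, 51.9% in the Pde4b peak and 51% in the Robo2 peak. The longest run of T within a peak was 13 bases in Celf2, 12 in Robo2, 5 in Pde4b and 4 in Ank2. The first motif searched was TTTTT, the second was TTTNTTT, with N for any base, and the third was ATTTA. Both strands were searched, and a stretch can hold more than 1 motif. The first and the second motif each occurred in the peaks of Celf2, Pde4b and Robo2, the third occurred in that of Ank2, and none of the motifs occurred on the other strand of the 4 peaks. Over all 71 cortex peaks that lay wholly in a window, in genes of any length, TTTTT occurred in 73.2% (61.9 to 82.1) on the peak's strand and in 4.23% on the other strand. In the central 51 bases of all 32851 windows, the share with TTTTT was 5.12% on the gene's strand. The corresponding shares were 54.9% against 3.13% for the second motif and 8.45% against 3.85% for the third. A match describes letters only, and 4 members do not stand for the other members, whose sequence was not used here.

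Long genes more often held a peak than shorter genes. At least 1 member lay in 202 of the 227 long genes (89.0%, 84.2 to 92.4), against a background of 38.6% of all coding genes and 75.2% (1656 of 2202) of genes of 100 to 500 kb. A longer span offers more room for a peak, so density is the fairer measure. Over all long genes the density was 12.2 peaks per 100 kb (12.05 to 12.36), against 7.59 (7.51 to 7.67) over genes of 100 to 500 kb, a ratio of 1.61 (1.58 to 1.64). The density was 8.67 over all coding genes and 9.27 (9.13 to 9.41) in genes of 50 to 100 kb, so the long genes of 500 to 750 kb lay close to that shorter class. Among genes with at least 1 peak the densities were 13.4 and 9.76, a ratio of 1.37 (1.35 to 1.40). By length, the density was 9.89 in genes of 500 to 750 kb, 12 in genes of 750 to 1000 kb and 14.4 in genes over 1000 kb.

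Members were concentrated in few genes. The 10 long genes with the most peaks held 5861 members (24.9%), and 29 genes held 50% of them. With those 10 left out of the long genes, which lowers their density by construction, and the genes of 100 to 500 kb kept whole, the ratio was 1.30. Gene by gene, the density had a median of 8.24 among the 202 long genes with a peak, with quartiles of 3.72 and 16.5, against a median of 6.86 among the 1656 genes of 100 to 500 kb with a peak. Shorter genes with a peak had higher medians, 10.4 at 50 to 100 kb, 11.9 at 10 to 50 kb and 30.3 under 10 kb, where a single peak is already a high density. With only peaks of p under 0.01, the median of long genes with a peak was 3.61 and their pooled density 6.13. Density varied widely between long genes of similar length, and Spearman's rho between density and span was 0.184 over all 227 genes, as a description of genes that share the same libraries. Of the 227 genes, 88 reached 10 peaks per 100 kb, 38 reached 20 and 6 reached 50. The genes nearest to the length threshold spread widely on both sides of it. Just below 500 kb, Cacna1e, Lrrc7 and Dnm3 had 10.1, 25.7 and 9.88 peaks per 100 kb, and just above it Edil3, Dock1 and Samd12 had 11.6, 0 and 10.5, and 3 peaks touched Dock1 together with another coding gene.

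**Figure D1:**
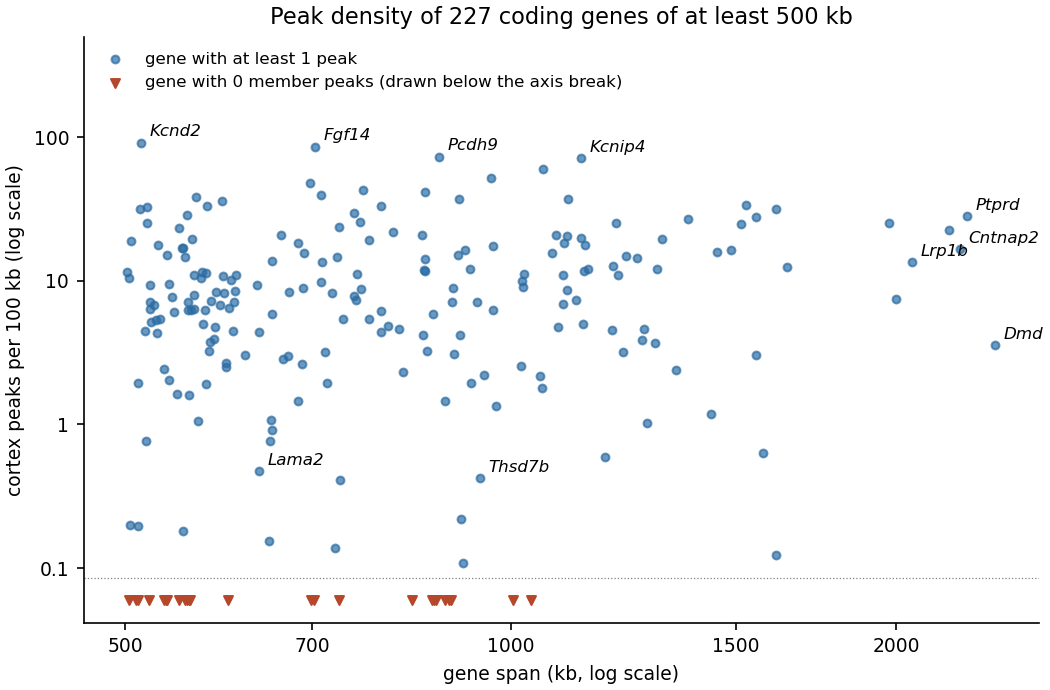
Each point is 1 of the 227 coding genes of at least 500 kb, with its span on the horizontal log axis (kb) and its density of cortex peaks on the vertical log axis (peaks per 100 kb); triangles under the dotted line are the 25 genes with 0 members, of which 6 were touched by peaks that also touched another coding gene. Genes of similar length spread widely in density. The highest density was 91.7 in Kcnd2 at 514 kb, and Dmd, the longest gene, had 3.56.

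Genes of channel proteins, their partners and adhesion molecules were among the 6 above 50 peaks per 100 kb. Kcnd2 (chr6:21215346-21729805, plus strand), the pore-forming subunit of an A-type potassium channel, had the highest density, 91.7 per 100 kb (83.7 to 100). Fgf14 (chr14:123974441-124677686, minus strand), an intracellular factor that binds voltage-gated sodium channels, followed with 85.7. Pcdh9 (chr14:93013700-93892834, minus strand), a protocadherin, had 73.3, and Kcnip4 (chr5:48389503-49525122, minus strand), a calcium-binding partner of the Kcnd channels, had 71.5. The 95% intervals of neighbours among these 4 overlapped. Cadm2, an immunoglobulin-type adhesion molecule, had 51.9 (47.4 to 56.6), below the interval of Kcnip4 (66.7 to 76.6). Peaks in these genes stood close together, with a median distance between neighbours of 0.571 kb in Kcnd2, 0.655 kb in Fgf14, 0.729 kb in Kcnip4 and 0.762 kb in Pcdh9. The median distance was 1.69 kb over all members and 2.32 kb in genes of 100 to 500 kb. Neighbours under 500 nt apart made up 21.5% of all distances in long genes and 19.2% in genes of 100 to 500 kb.

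Below 50 peaks per 100 kb, the next 4 genes in density were Grik2, a kainate-type glutamate receptor subunit, with 48.0 peaks per 100 kb, Adgrb3, an adhesion G-protein-coupled receptor of synapses, with 43.1, Celf2 with 41.2 and Ralyl, a protein of the RALY RNA-binding family, with 39.5. The longest genes were not the densest. Dmd, the dystrophin gene, had 85 peaks in 2390 kb, or 3.56 per 100 kb. Ptprd, a receptor tyrosine phosphatase of synapses, had 28.3 over 2271 kb. Cntnap2, a neurexin-like adhesion protein of axons, had 16.6, Lsamp, a GPI-anchored adhesion protein of the limbic system, had 22.7, and Lrp1b, a member of the LDL receptor family, had 13.6.

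In 25 long genes there was no member. Of these, 19 were touched by no peak at all, and the other 6 were touched by 3 to 128 peaks that also touched another coding gene and so fell outside the rule. The longest genes touched by no peak were Lrmda (1037 kb), Pard3b (1004 kb), Spag16 (898 kb) and Agbl1 (895 kb). Next in length came Gm37013 (889 kb), which was touched by 128 peaks and shares nearly all of its span with Gm38666 and Gm38667. A count of 0 in Lrmda allows a density of up to 0.356 peaks per 100 kb, which is the upper exact Poisson limit. Another 6 long genes held a single peak: Arhgap15, L3mbtl4, Malrd1, Nckap5, Stpg2 and Thsd4. These 6 genes were picked out after their values had been seen.

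Density by function was read from hand-written gene lists, beside the median of 7.07 peaks per 100 kb over all 227 long genes. A peak was present in 89.0% of all long genes, so that a list with a peak in every member lies near that share and is not set apart by it. Among ion channels and channel partners all 14 long genes had a peak, with a median density of 16.0 and a range of 3.92 to 91.7. Of the 14 immunoglobulin-type adhesion genes all had a peak, with a median of 18.5, and 11 of the 14 lay at or above the overall median of genes with a peak. The list of neurexins, neuroligins, latrophilins and teneurins gave 13 of 13 and a median of 14.9. It also held Adgrb3, Cntnap2, Cntnap5a, Cntnap5b and Cntnap5c. Glutamate and GABA receptors gave 7 of 7 and a median of 15.9, among them Grik2 (48.0) and Grm7 (a presynaptic metabotropic receptor, 16.4). The list of cadherins and protocadherins, which also held the catenins Ctnna2, Ctnna3 and Ctnnd2, gave 9 of 9 with a median of 10.9. Synaptic scaffolds and spine signalling genes gave 26 of 26 with a median of 10.6, among them Dlg2 (25.1), a postsynaptic density scaffold.

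Lists nearer the overall median were receptor phosphatases and guidance genes (17 of 17, median 6.92), cytoskeletal genes (13 of 13, 7.11) and genes of fragile sites and other large genes (29 of 31, 6.83). Within the receptor and guidance list the densities ran from 0.408 to 37.2 in Nrg3, an ErbB4 ligand. Transcription and chromatin factors had a peak in 14 of 15 long genes and a median of 4.86, with Rora, a nuclear receptor, at 23.5, Auts2, a chromatin regulator of neurons, at 20.3 and Mecom at 0. The list of RNA-binding and splicing regulators held 4 long genes. Celf2 (41.2) and Rbfox1 (33.9), both splicing regulators of neurons, stood far above Khdrbs2 (5.44) and Rbms3 (1.80). Ralyl (39.5), of the RALY RNA-binding family, was placed in the list of fragile sites and other large genes.

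Among the lists, those of genes best known outside the brain and of glial genes had the lowest medians. Long genes best known outside the brain had a peak in 9 of 14 and a median of 0.167 peaks per 100 kb. None of the 14 reached the median of genes with a peak, and Pkhd1, Mecom, Hpse2 and Arhgap24 were among those with 0. The highest of them, Inpp4b, a phosphoinositide phosphatase, had 6.19. Genes of the glial list all had a peak (12 of 12), with a median of 3.68. All of them except Nkain2 and Lhfpl3 also stood in another list, so this is not a separate class of genes. Within that list Nkain2 (25.3), Pde4b (25.2), Kirrel3 (16.9) and Trpm3 (11.8) were highest, followed by Dscam (7.20), Lhfpl3 (4.34), Pcdh15 (3.03) and Npas3 (2.31). Gpc6 (2.18), Gpc5 (1.19), Sox6 (1.05) and Ctnna3 (0.635) were lowest, and 8 of the 10 members in Ctnna3 lay on the strand opposite to it. Over the whole cortex list, all 6 neuronal markers had a peak assigned to them alone. So did 5 of 6 astrocyte markers (Gfap at 0), 4 of 5 oligodendrocyte markers (Mag at 0), 1 of 4 endothelial markers and none of 5 microglial markers, although 8 peaks touched P2ry12 together with another gene. In tissue samples of this kind, fewer cells of a type and less RNA per cell cannot be told apart, and RNA levels were not measured. The 52 long genes in no list had a median of 2.41, with a peak in 34, so the lists hold the denser genes and were written with earlier results of these data known.

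Peaks lay mostly toward the start of long genes. Their midpoints were placed between 0 at the start of the span and 1 at its end, on the strand of the gene. For 23534 members with a gene strand the median position was 0.381, against 0.490 in genes of 100 to 500 kb. With the span cut into 10 equal windows, the first held 15.8% of members, and the share fell in each later window to 5.83% in the ninth, before 7.64% in the last. In genes of 100 to 500 kb the first window held 12.2% and the last 19.1%. The first 20% of the span held 29.2% of members against 23.1% in the shorter genes, a difference of 6.02 points (5.28 to 6.76), and the last 20% held 13.5% against 26%, a difference of -12.6 points (-13.2 to -11.9).

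**Figure D2:**
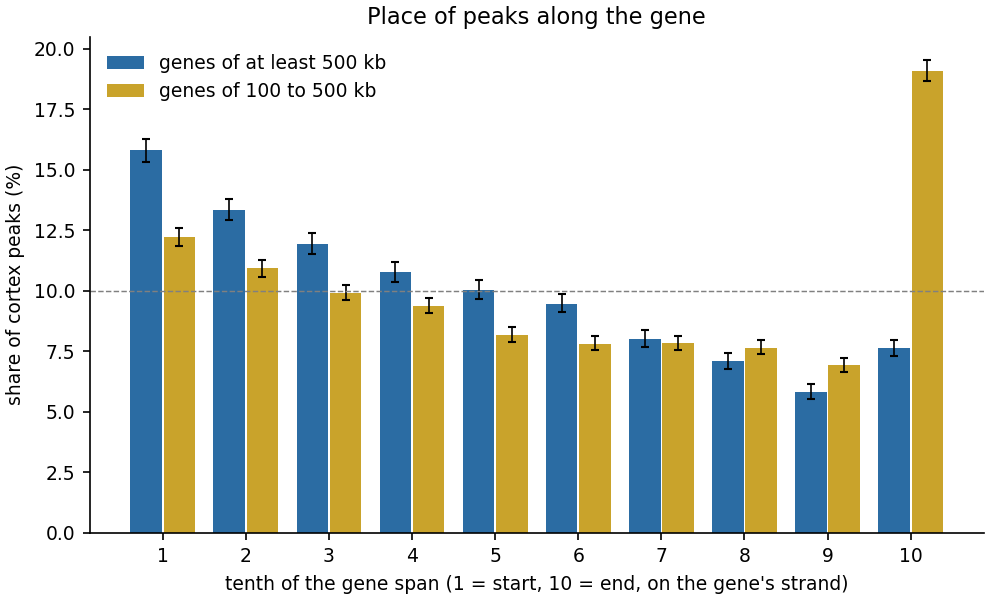
Bars give the share of cortex peaks (%) in 10 equal windows of the gene span, from start (1) to end (10), for genes of at least 500 kb and genes of 100 to 500 kb, with Wilson 95% intervals; the dashed line marks 10%. In long genes the share declines from 15.8% to 5.83% over the first 9 windows, and the shorter genes have 19.1% in the last window where the long genes have 7.64%.

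A window of 5 kb at the end takes a larger part of a shorter gene, so the comparison was repeated without it. Outside the last 5 kb, positions below 0.5 held 63.7% of members and 58.1% of peaks in genes of 100 to 500 kb, a difference of 5.65 points (4.80 to 6.50). The last 20% of the span then held 11% against 15.2%. With each of the 163 long genes of at least 20 peaks counted equally, the first window held 16% ± 10.6 (SD over genes, n = 163), the ninth 5.68% ± 5.4 and the last 10.6% ± 9.49. The SD shows how much single genes departed from the common profile.

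In absolute distance the decline continued over the first 1000 kb. The 59 genes of at least 1000 kb held 11400 members. In their first 100 kb the density was 22.7 per 100 kb (21.5 to 24.0), at 400 to 500 kb it was 14.97 and at 900 to 1000 kb it was 10.2 (9.42 to 11.1). Measured back from the end, the density was 9.34 in the last 100 kb and lowest, at 7.27, between 100 and 200 kb from the end. Of the 59 genes, 41 had more peaks in the first 100 kb than at 900 to 1000 kb, 12 had fewer and 6 had equal numbers. Among the 59 were 7 of the 10 genes with the most peaks. Without these 7 the values were 19.98 in the first 100 kb and 6.31 at 900 to 1000 kb.

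**Figure D3:**
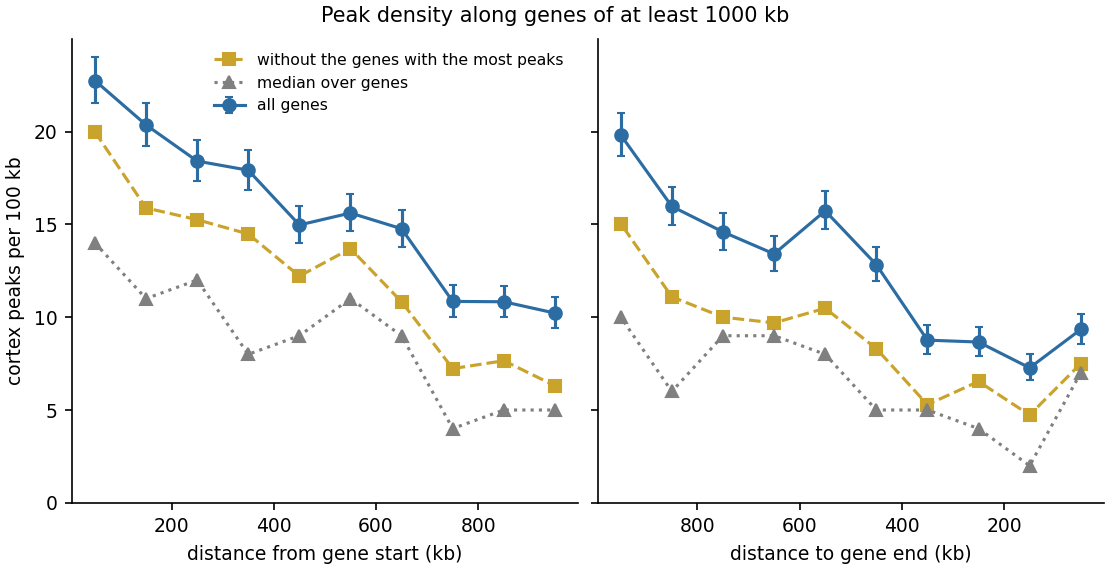
Density of cortex peaks (peaks per 100 kb) in windows of 100 kb along the 59 genes of at least 1000 kb, by distance from the start (left) and to the end (right): circles with exact Poisson 95% intervals pool the 59 genes, squares leave out the 7 genes that are among the 10 with the most peaks, and triangles are the median over genes. The pooled values go from 22.7 in the first window to 10.2 in the last of the 10 from the start, and the median over genes from 14 to 5.

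Single genes differed widely in where their peaks lay. Among the 113 long genes with at least 50 members, the median position ran from 0.103 to 0.749. In 89 of them more than 50% of peaks lay below position 0.5. The 95% interval of that share was above 50% in 72 genes and below it in 17. In 43 of the 113 the densest 100 kb window was the first. Cntnap2 had the lowest median position, 0.103: 77.6% of its 371 peaks lay in the first 20% of its span, 87 of them in the first 100 kb, and a stretch of 253 kb near its end had none. Dmd and Dcc, a netrin receptor, followed with medians of 0.147 and 0.152. The densest genes also leaned toward the start. Positions below 0.5 held 77.0% of peaks in Kcnip4 (74.0 to 79.7), 70.1% in Kcnd2, 69.9% in Cadm2, 68.5% in Pcdh9 and 67.5% in Fgf14.

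Other genes were densest in the middle or toward the end. Ccser1 had the highest median position, 0.749, with 42 of its 153 peaks between 900 and 1000 kb from the start. Anks1b, an ankyrin-repeat protein of the postsynaptic density, and Kcnma1, the pore of the large-conductance calcium-activated potassium channel, had medians of 0.739 and 0.728. The splicing regulators differed among themselves. Rbfox1 had 78 of its 518 peaks at 900 to 1000 kb and a median of 0.612, and Celf2 had 113 of 353 at 500 to 600 kb and a median of 0.638, whereas Khdrbs2, with 29 peaks, had its densest 100 kb at the start and a median of 0.491. Nrxn3, a presynaptic adhesion receptor, had 71 of its 513 peaks at 800 to 900 kb and 33.5% (29.6 to 37.7) below position 0.5. Lsamp had 70 of its 499 peaks at 1600 to 1700 kb, more than in any other of its 21 full windows of 100 kb. Ank2 had 4.69% of its 192 peaks in the first 20% of its span and 34.4% in the last 20%.

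In the 113 long genes with at least 50 members, peaks were spread over almost the whole span. Genes chosen for many peaks leave few empty windows and short gaps, so this follows in part from the choice. Of 1037 full windows of 100 kb in the 113 genes, 41 (3.95%) held none. The longest stretch without a peak was a median of 8.84% of the span in these genes. Among these 113 genes, the longest such stretch by share of the span was 221 kb in Kirrel3, an adhesion molecule (39.8%, from 334 kb to the end). Next came 209 kb in Nfia, a transcription factor (38.6%, from the start), and 218 kb in Ptprg, a receptor phosphatase (31.7%, from 436 to 654 kb).

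**Figure D4:**
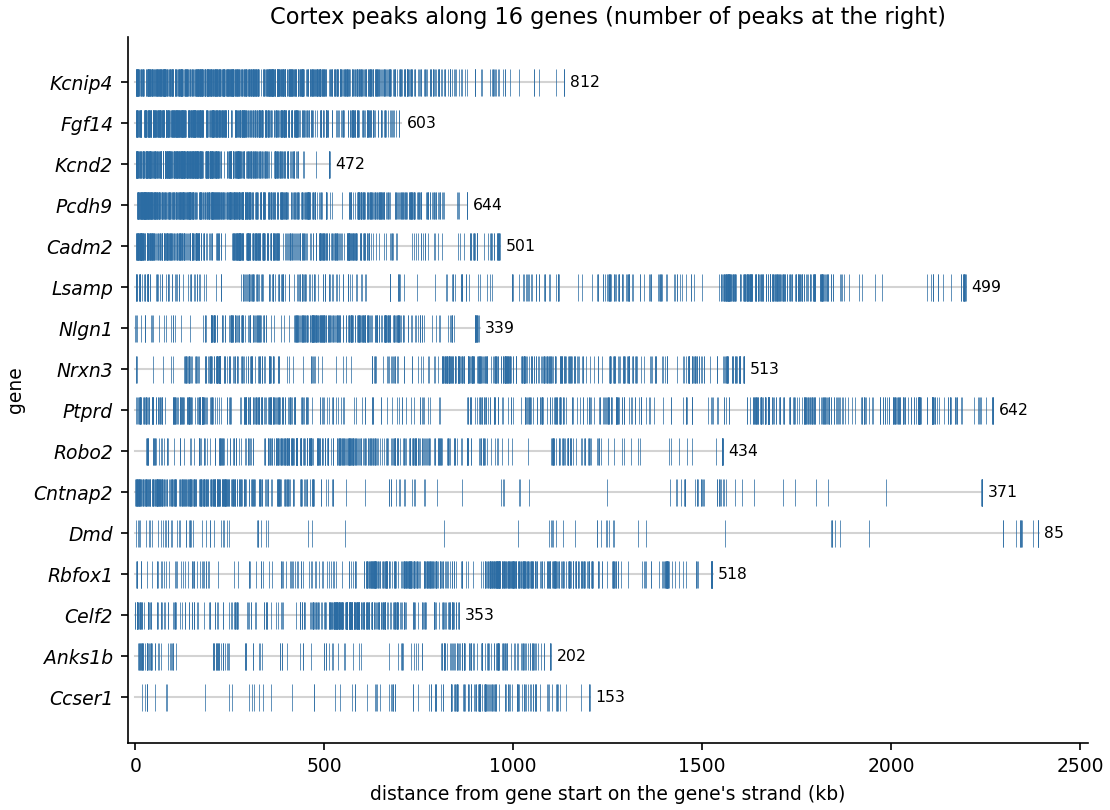
Each row is 1 of 16 long genes drawn to scale from its start (kb on the horizontal axis), each vertical line is 1 cortex peak, and the number at the right is the count of peaks. Kcnip4, Cntnap2 and Dmd are densest in the first 100 kb and Kcnd2 between 100 and 200 kb. Lsamp, Nrxn3, Rbfox1, Celf2, Anks1b and Ccser1 have dense blocks far inside the gene.

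The last few kilobases of long genes stood out from the rest of the span. The density within 5 kb of the gene end was 60.5 per 100 kb (56.0 to 65.3) against 12.3 elsewhere, a ratio of 4.91 (4.54 to 5.31). It was 14.8 between 5 and 10 kb from the end and 5.75 between 10 and 20 kb. At the start the density was 17.8 in the first 5 kb and 21.6 between 5 and 10 kb. These 5 kb are a small part of a long gene, so they held 663 members, or 2.82%, against 12.8% of peaks in genes of 100 to 500 kb, a difference of -9.98 points (-10.4 to -9.56). Of 219 long genes with a strand, 164 had a peak in the last 5 kb, with a median of 4 peaks, and 83 had a peak in the first 5 kb.

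The end peaks were also the stronger ones by the authors' p-value, which ranks peaks within the list. Of the peaks within 5 kb of the end, 73.8% had a p under 0.01, against 49.6% elsewhere, a difference of 24.2 points (20.6 to 27.5). Over all members the share was 50.3%, and in the whole cortex list it was 50.3%. The median p was 2.46e-05 within 5 kb of the end and 0.0104 elsewhere. With the span cut into 5 equal windows, the share under 0.01 was 52.4% in the first, 47.6% in the third and 51.8% in the last. The strongest peak of the gene lay within 5 kb of the end in 65 of 200 genes (32.5%).

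A p of 0 was listed for 2 members, out of 65 in the list. The Syt1 peak, at chr10:108499242-108499293 on the minus strand, lay 1.62 kb from the end of the gene, which encodes the calcium sensor of synaptic vesicle release. The Fgf14 peak lay 100 kb from the start and 603 kb from the end. In Ank2 the strongest peak lay 0.208 kb from the end, and in Nrxn3 it lay 0.0535 kb from the end. In Ptprd the distance was 2.86 kb. The strongest peak of Celf2 lay at 0.63 of the gene, that of Kcnd2 at 0.72, that of Kcnip4 at 0.027 and that of Kcnma1 at 0.014.

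The 5 genes with the largest share of their peaks at the end all had a density below the median of 8.24. The share is taken of all peaks of a gene, so genes with few peaks reach a high share more easily. Their low density is therefore not a separate result. Among genes with at least 20 peaks, Sox5, a transcription factor of cortical development, had 9 of 21 peaks in its last 5 kb, and Esrrg, a nuclear receptor, had 9 of 27. Foxp1, a forkhead factor, had 12 of 49, Cdk14, a cyclin-dependent kinase, 8 of 36, and Cntnap5a, a neurexin-like adhesion protein, 5 of 28. The transcription factors Sox5, Esrrg and Foxp1 had 2.20, 4.45 and 8.20 peaks per 100 kb in all.

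Many long genes have more than 1 annotated start, and the density could be set on both sides of the last of them. This comparison was added after the positions had been seen. In 38 genes with at least 20 peaks the annotated starts lay at least 100 kb apart. The density was higher after the last start in 12 of these, with a 95% interval of the ratio above 1, and lower in 7, and the interval spanned 1 in 18. Prkg1, a cyclic GMP-dependent kinase, had 0 peaks in the 101 kb before its last start and 55 after it. The median ratio was 1.10 over the other 37 genes.

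Nlgn1, a postsynaptic partner of neurexins, had 19 peaks in the 179 kb before its last start, or 10.6 per 100 kb, and 320 after it, or 43.7 per 100 kb, a ratio of 4.11 (2.59 to 6.92). Lsamp had 18.1 before and 33.6 after a start at 1549 kb, a ratio of 1.85 (1.54 to 2.22). In Anks1b the ratio was 2.08, in Trpm3, a cation channel, 2.62, and in Nav2, a protein of growing axons, 4.21. The opposite order was seen in Kcnip4, with 85.5 before and 9.99 after a start at 925 kb, a ratio of 0.117 (0.0720 to 0.180). Robo2 had a ratio of 0.351, Dpp6, a partner of Kcnd channels, 0.324, and Rbfox1 0.613. The part after the last start reaches the gene end in every gene, so each ratio includes the dense last 5 kb. In Foxp1, 17 peaks lay after the last start, and 12 of them lay in the last 5 kb. Where the last start lies near the end of the gene, as in Ank2, B3galt1 and Mgat4c, the last 5 kb are a larger part of what follows. How many genes would be denser after the last start without the last 5 kb was not tested. Which start was used in these samples was not measured.

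**Figure D5:**
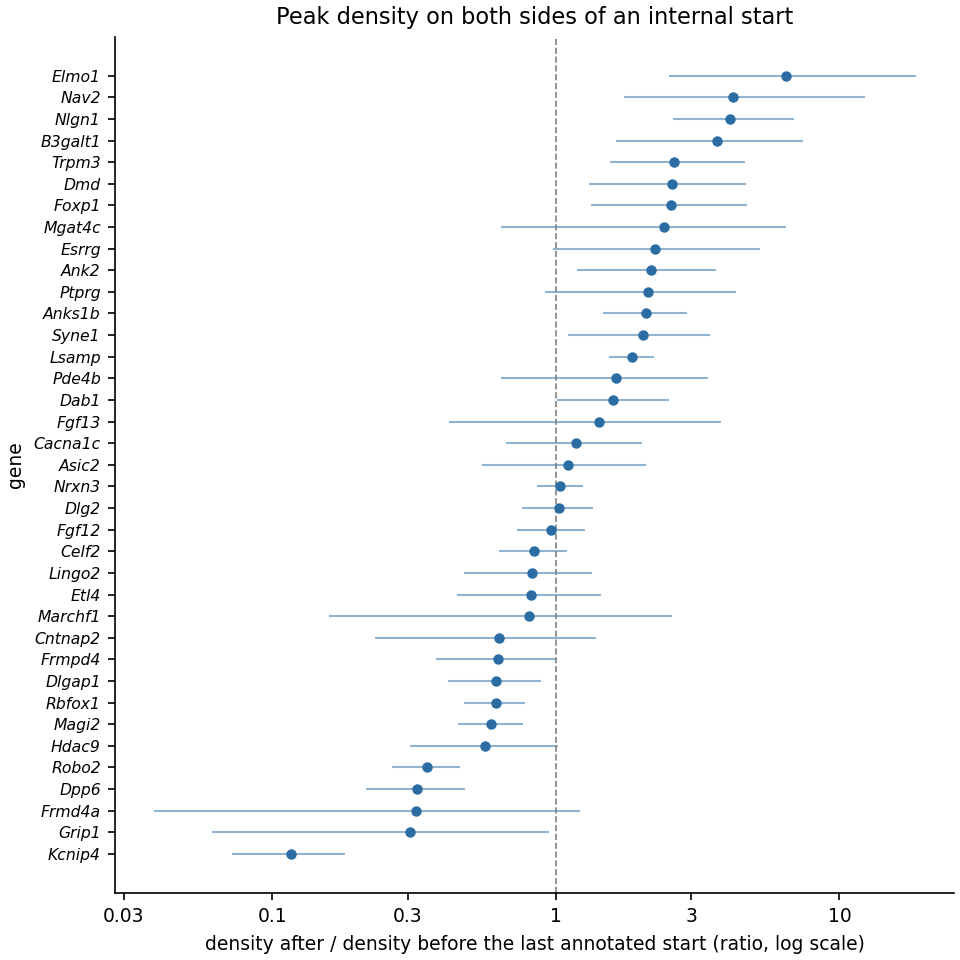
For 37 long genes, the point is the ratio of peak density after the last annotated start to that before it (log axis), and the line is its 95% interval from exact binomial limits. Ratios run from 6.46 in Elmo1 to 0.117 in Kcnip4, and 18 of the 37 intervals include 1.

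Almost all members lay on the strand of their gene. The share was 99.9% (99.8 to 99.9), and 32 of 23534 members, in 16 genes, lay on the opposite strand, against a background of 0.591% over all coding genes. In the genes whose strand came from the annotation the share was also 99.9%, and in the others strand was set by the majority of peaks. Ctnna3, a catenin, held 8 of the opposite peaks among its 10 members, and 77 peaks touched it in all. All 8 lay 0.56 to 19.98 kb outside the span of Lrrtm3, a synaptic adhesion gene that lies inside Ctnna3 on that strand. In Kcnip4 the 3 opposite peaks lay 0.751 to 22.0 kb from Pacrgl. In Wwox, an oxidoreductase gene, the 7 opposite peaks lay in the last 1% of the span, with the nearest coding gene on that strand 351 to 359 kb away.

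In N2A the same rule gave 95 peaks, or 1.30% of its 7335. They lay in 36 long genes (15.9%, 11.7 to 21.2), against a background of 13.5% of all coding genes with an N2A peak. Of these 36, 34 also had a cortex peak, which is near the 89.0% of all long genes that had one. Dock2 and Rad51b had an N2A peak only. The most N2A peaks were in Foxp1 (10, against 49 in cortex) and Rbms3, an RNA-binding protein (7 against 19). Zfhx3, a homeobox factor, had 5 against 10, and Ank2 had 5 against 192. Kcnip4, Pcdh9, Fgf14, Kcnd2 and Cadm2, among the densest genes of cortex, had 0 in N2A. Within 5 kb of the gene end lay 35.8% (26.9 to 45.8) of the N2A peaks, and 15.8% lay in the first 20% of the span. Peaks of both lists overlapped in 55 cases, which is 57.9% of the N2A peaks and 0.234% of the cortex members. The lists differ in size, linker and number of samples, so these values stand side by side without a test.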

How the data were processed

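The deposited lists give chromosome, start, end, strand and a p-value per peak, made by the authors' peak calling. The p-values run from 0.0 to 0.0999. The sources used here do not give their adjustment, the peak caller, its filters or any pooling of cortex reads. Novoalign and hg19 are named per the submitters' processing notes. Chromosome names are those of mouse and positions matched the RefSeq gene table of GRCm38.p6. Coordinates are printed as deposited, and sequences were read as counted from 1, which the sources do not state.

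Spans of 49997 genes, 21900 of them coding, were used. Strand came from the RefSeq promoter table for 179 long genes, from the majority of at least 3 peaks for 40, and was not set for 8. Shares carry Wilson 95% intervals, densities exact Poisson intervals, and ratios exact Clopper-Pearson limits. Python 3.11.15, numpy 2.4.6, scipy 1.17.1 and pandas 2.3.3 were used, and the code was checked on simulated data. Genes were named by count, density, length, position, gaps, end share, p listed as 0, N2A peaks and list membership, and a few genes that the rule names are not reported here. The members and lists were chosen with earlier results of these data known. With no counts in the lists, depth is unknown. Alternatives covered the overlap rule, p, span, merging of peaks within 100 nt, weighting, the end window and the densest genes.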

Additional observations from a re-analysis of the deposited data

How the results depend on the processing

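No paired analysis was possible because each list holds no values per sample and only cortex has numbered samples, so leaving out replicates was not possible either. Neither the density ratio nor the difference in end share changed direction. For the other results only the size of a change was judged. Of 63 checks of the main results, 32 moved by less than their interval or, for the count of members, by less than 1.5 times. Among the latter, members numbered 28253 with genes of at least 400 kb, 16662 with genes of at least 750 kb and 17676 without the 10 genes with the most peaks. The others follow. With p under 0.01 only, members numbered 11828, at 6.13 peaks per 100 kb, with 30.4% in the first 20% of the span and 4.13% within 5 kb of the end. The density ratio to genes of 100 to 500 kb was then 1.68, the median density of long genes with a peak 3.61 and the difference in end share -14.4 points. With p at or below the list median these were 11753, 6.09, 30.4% and 4.16%, with 13.9% in the last 20%. With genes of at least 400 kb the density was 11.4, the first 20% held 28.6%, the last 20% held 14.95% and the end held 3.65%. With genes of at least 750 kb the density was 13.5, its median over genes 11.1, the last 20% held 12.7% and the end held 2.08%. Merging peaks within 100 nt gave a density of 11.8. Without the 10 genes with the most peaks the density was 9.90, the first 20% held 30.2%, the end 3.49% and, in an alternative chosen after seeing the data, the ratio 1.30. With genes weighted equally the first 20% held 28.4%, the last 20% held 16.2% and the end 4.95%. End windows of 10 and 20 kb held 3.51% and 4.04%. Against genes of 200 to 500 kb the difference in end share was -7.03 points. Leaving out the last 5 kb, also chosen after seeing the data, gave 30.01% in the first 20% and 10.96% in the last 20%. Why values moved was not tested, except that a stricter p or other spans change which peaks count.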

Other observations

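Long genes of 1 chromosome differed in density from those of another. The 11 long genes of chromosome 16, among them Cadm2, Lsamp, Rbfox1 and Robo2, held 2534 members, or 22.3 per 100 kb. The 12 long genes of chromosome 5, which include Kcnip4, had 18.2, and the 15 of chromosome 14, which include Pcdh9, Fgf14 and Nrg3, had 16.3. The 11 long genes of chromosome X, which include Dmd and Il1rapl1, had 6.90. A few genes held many of these peaks, and Kcnip4 alone held 812 of the 1843 members of chromosome 5.

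Some of the strongest peaks lay in long genes that otherwise held few. Camta1, a transcription activator, had 39 peaks and a strongest p of 5.31e-255 at 1.79 kb from its end. Psd3, an exchange factor of the postsynaptic density, had 37 peaks and a strongest p of 2.92e-299 at 7.67 kb from its end. Cdk14 had 36 and a strongest p of 2.03e-172 at 2.71 kb from its end. Rbms3 had 19 peaks, with a median position of 0.996, and Zfhx3 had 10, with a median of 0.995. Camta1 and Psd3 were picked out after their values had been seen. The p-values are the authors' and rank peaks within the cortex list only.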
